A study of Mus musculus with 7 samples.

Results

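Aminoacyl-tRNA synthetases, the enzymes that join an amino acid to its tRNA, were examined in quadriceps femoris muscle of mice with a mitochondrial myopathy model. The genes were taken by name: every probe set annotated to 1 gene symbol among 36 synthetase genes, newer names such as Aars1 included. Of the 36 genes, 35 were measured out of 18193 genes in all, with 19 of 20 cytosolic and 16 of 16 mitochondrial enzymes, whose symbols end in 2. Dars was the member with no probe set of its own here, and 1 probe set annotated to both Aars and Exosc6 was left out. The mutant mice overexpressed mutant Twinkle, a helicase that unwinds mitochondrial DNA, and served as a model of progressive external ophthalmoplegia. They were 24, 24 and 21 months old (mutant muscle 1, 2 and 3), and the wild-type (WT) mice were 26, 24, 21 and 23 months old (WT muscle 1, 2, 3 and 4). Each muscle was hybridised to 1 single-colour Affymetrix array, and the labels call the arrays biological replicates. The free-text descriptions name cerebellum, but 10 of 10 muscle fibre markers and 0 of 10 cerebellum markers lay in the brightest signal class defined below.

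Cells keep separate sets of synthetases for protein synthesis in the cytosol and in the mitochondrion, and nuclear genes encode both. Gars and Kars are exceptions that also make the mitochondrial form of their enzyme from the same gene. Several cytosolic synthetases sit in a multi-synthetase complex held together by Aimp1, Aimp2 and Eef1e1. When a tRNA is left uncharged, the kinase GCN2 (Eif2ak4) senses it and translation of the transcription factor ATF4 increases, and ATF4 is known to drive asparagine synthetase (Asns) and many cytosolic synthetase genes. Mitochondrial synthetases serve the few proteins encoded in mitochondrial DNA, the molecule that Twinkle helps to replicate. The comparison therefore set the mutant minus WT difference of the cytosolic class beside that of the mitochondrial class.

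Promoter windows from RefSeq, reaching from 250 bases before to 50 after each gene's start on GRCm38.p6, were found for 26 of the measured synthetases, 12 cytosolic and 14 mitochondrial. On both strands they were searched for 4 motifs, which were chosen with the members' values known. TGATGNAA, the core of the composite element that ATF4 binds with C/EBP partners, was present in 5 cytosolic windows (Aars, Gars, Iars, Tars and Yars) and in 0 mitochondrial ones, and in 3.97% of all 32851 promoter windows. Stretches of these windows around the match, between 69 and 280 bases long, are printed because this core was found in them, in lower case with TGATGNAA or its reverse complement in capitals, 5′ to 3′ on the gene's own strand. They lie on GRCm38.p6 at chr4:129189860-129189932, plus strand (Yars), chr6:55037925-55038024, plus strand (Gars), chr8:111033592-111033871, plus strand (Aars), chr13:49682091-49682159, plus strand (Iars) and chr15:11399629-11399719, minus strand (Tars).
Yars: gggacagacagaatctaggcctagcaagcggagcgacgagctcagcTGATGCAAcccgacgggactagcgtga
Gars: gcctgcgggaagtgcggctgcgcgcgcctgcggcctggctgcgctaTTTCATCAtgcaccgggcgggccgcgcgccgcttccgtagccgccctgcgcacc
Aars: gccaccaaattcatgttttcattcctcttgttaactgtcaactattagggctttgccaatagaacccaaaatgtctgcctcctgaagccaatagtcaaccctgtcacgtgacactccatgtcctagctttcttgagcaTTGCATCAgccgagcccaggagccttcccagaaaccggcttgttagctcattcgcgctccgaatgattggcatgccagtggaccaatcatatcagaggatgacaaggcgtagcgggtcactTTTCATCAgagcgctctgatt
Iars: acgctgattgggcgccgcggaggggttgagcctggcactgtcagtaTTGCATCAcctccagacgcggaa
Tars: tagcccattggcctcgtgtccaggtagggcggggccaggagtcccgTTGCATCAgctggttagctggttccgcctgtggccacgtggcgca
The core began 30 bases before the start of Gars and 15 before that of Tars, at 112 before and again just after the start of Aars, and just after the start of Iars and Yars.

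The palindrome TGACGTCA, the full cyclic AMP response element, was in 0 of the 26 windows and in 1.79% of all windows. Its shorter form TGACGT, which every TGACGTCA contains, was in the windows of Eprs, Aars2, Nars2 and Wars2 and in 7.51% of all windows. The palindromic motif of the nuclear respiratory factor NRF1 was in 0 of the 26 and in 0.97% of all. The median mutant minus WT difference, on the log2 scale used below, was 0.16 over the 5 cytosolic genes with TGATGNAA, 4 of them positive, and 0.063 over the 7 cytosolic genes without it, 5 of them positive. Over all 19 measured cytosolic genes, with or without a window, the median was also 0.16. These are descriptions of letters in short windows, and a window without a match says only that these letters are not in it.

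The deposited values were read as log2 intensities centred so that every probe set has a median of 0 across the 7 arrays, and they give differences between arrays and no levels. A rough signal class was recovered from the numerical spacing of the values: between 8 and 16 on the log2 scale (brightest), 4 to 8, or 2 to 4. In the brightest class were 15 of 19 cytosolic synthetases, with Vars, Tars, Farsa and Yars in the 4 to 8 class. Of the mitochondrial ones, 14 of 16 lay in the 4 to 8 class, Vars2 in the brightest and Mars2 in the dimmest. Probe sets in a gene's brightest class were averaged to give its value, and 52 of the members' 72 probe sets entered these values. Differences are mutant minus WT on the log2 scale with the standard error of limma, whose p-values were adjusted by the Benjamini-Hochberg method over all 18193 genes.

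No synthetase passed the test. In limma, 0 of 35 members had an adjusted p under 0.05 (background 0.0% of all genes, smallest adjusted p 1.00), and 0 of 35 had an unadjusted p under 0.05 (background 1.39%, 253 genes). The 3 mutant arrays lay above all 4 WT arrays for 0 of 35 members (background 0.846%) and below all of them for 0 of 35 (background 1.18%). The difference was positive for 15 of 19 cytosolic and 9 of 16 mitochondrial synthetases (background 46.4%). The median difference was 0.16 for the cytosolic class, with members between -0.085 and 0.38, and 0.017 for the mitochondrial class, with members between -0.19 and 0.18, beside -0.011 over all genes. The cytosolic median lay 0.15 above the mitochondrial one. Above the mitochondrial median were 15 of the 19 cytosolic genes, and 2 of the 16 mitochondrial genes lay above the cytosolic median. No test was made of these medians, and replicate error was read from each member and from the class medians on each array.

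**Figure D1:**
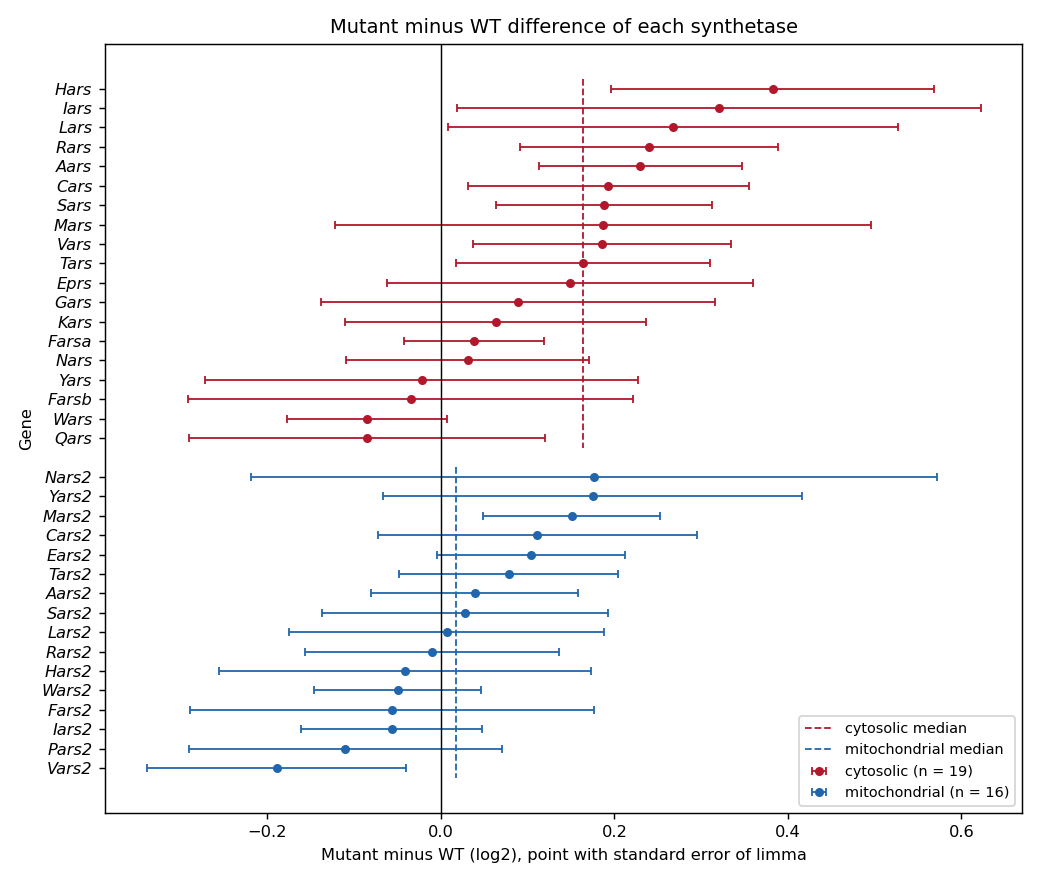
Mutant minus WT difference of each synthetase on the log2 scale (horizontal axis), with the standard error of limma as bars, for 19 cytosolic genes (above, red) and 16 mitochondrial genes (below, blue), 3 mutant and 4 WT arrays. The dashed lines mark the class medians, 0.16 (cytosolic) and 0.017 (mitochondrial), and no difference passed the test.

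The brighter signal of the cytosolic class was also taken into account. The 15 cytosolic synthetases of the brightest class had a median difference of 0.19, 12 of them positive, beside 0.017 over all 4278 genes of that class, of which 55.8% were positive. The 14 mitochondrial synthetases of the 4 to 8 class had a median of 0.017, 8 of them positive, beside -0.0072 over all 8566 genes of that class, of which 47.9% were positive. The 4 cytosolic synthetases of the 4 to 8 class had a median of 0.10. Signal class differs between the cytosolic and mitochondrial sets almost throughout, and its part in their difference was not tested.

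Among cytosolic enzymes, Hars charges tRNA with histidine. Its values were 0.34, -0.069 and 0.39 in mutant muscle 1, 2 and 3, against -0.34, 0.15, 0.00 and -0.46 in WT muscle 1, 2, 3 and 4. The lowest mutant array lay below 2 of the 4 WT arrays, so the groups overlapped. The difference was 0.38 ± 0.19 (1.30-fold), with an unadjusted p of 0.077 and an adjusted p of 1.00 in limma. This value came from 1 probe set in the brightest class, and the second Hars probe set, in the 4 to 8 class, differed by 0.069. With all 7 arrays and the brightest-class probe set alone, Hars had the largest cytosolic difference. It did not with both probe sets averaged (Hars 0.23, Iars 0.36, Sars 0.28 and Lars 0.27) or, for example, without WT muscle 1 (Hars 0.32, Iars 0.50 and Lars 0.42).

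Aars, the alanine enzyme, had values of 0.22, 0.051 and 0.054 in mutant muscle 1, 2 and 3, against -0.20, -0.039, 0.078 and -0.32 in WT muscle 1, 2, 3 and 4. Mutant muscle 2 and 3 were exceeded by WT muscle 3 alone. Its difference was 0.23 ± 0.12 (1.17-fold, unadjusted p 0.089, adjusted p 1.00 in limma), and its probe sets gave 0.21 and 0.25. Rars, the arginine enzyme, had values of 0.18, -0.13 and 0.13 in mutant muscle 1, 2 and 3, against -0.40, 0.00, 0.038 and -0.37 in WT muscle 1, 2, 3 and 4. WT muscle 1 and 4 were the lowest arrays for Hars, Aars and Rars alike, while mutant muscle 2 lay within the WT range of each. The difference of Rars was 0.24 ± 0.15.

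Iars, the isoleucine enzyme, had values of -0.028, 0.32 and 0.00 in mutant muscle 1, 2 and 3, against 0.30, -0.31, -1.004 and 0.12 in WT muscle 1, 2, 3 and 4. WT muscle 3 stood far below the other 6 arrays, and without it the difference of Iars was 0.060 rather than 0.32 ± 0.30. Lars, the leucine enzyme, had values of -0.0010, 0.75 and 0.00 in mutant muscle 1, 2 and 3, against 0.44, -0.079, -0.47 and 0.037 in WT muscle 1, 2, 3 and 4. Mutant muscle 2 was the highest array, and without it the difference was 0.018 rather than 0.27 ± 0.26; without WT muscle 3 it was 0.12. The groups overlapped for both genes.

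The other 14 cytosolic members lay closer to 0, with unadjusted p-values of at least 0.17 in limma. Differences were 0.19 for each of Cars (cysteine), Sars (serine), Mars (methionine) and Vars (valine). They were 0.16 for Tars (threonine) and 0.15 for Eprs, which charges both glutamate and proline. Gars (glycine), Kars (lysine) and Nars (asparagine) had 0.089, 0.063 and 0.031. The phenylalanine enzyme has 2 kinds of subunit, and its alpha subunit gene Farsa had 0.038 while its beta subunit gene Farsb had -0.035. Yars (tyrosine), Wars (tryptophan) and Qars (glutamine) were the other members below 0, at -0.022, -0.085 and -0.085. Standard errors over the class ran between 0.081 (Farsa) and 0.31 (Mars).

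In the mitochondrial class the largest difference was negative. Vars2, the valine enzyme, had values of 0.029, -0.46 and 0.014 in mutant muscle 1, 2 and 3, against -0.0039, 0.00, 0.27 and -0.065 in WT muscle 1, 2, 3 and 4. Mutant muscle 2 alone was low and mutant muscle 1 and 3 lay within the WT range. The difference was -0.19 ± 0.15, and -0.030 without mutant muscle 2. Nars2, the asparagine enzyme, had values of -0.45, 1.19 and -0.042 in mutant muscle 1, 2 and 3, against 0.40, 0.00, -0.48 and 0.31 in WT muscle 1, 2, 3 and 4, with the highest value of any synthetase on mutant muscle 2. Its difference was 0.18 ± 0.40, and -0.30 without that array.

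Yars2, the tyrosine enzyme, had values of -0.38, 0.67 and 0.068 in mutant muscle 1, 2 and 3, against -0.049, -0.27, -0.13 and 0.22 in WT muscle 1, 2, 3 and 4, and Cars2, the cysteine enzyme, had -0.32, 0.50 and -0.081 in mutant muscle 1, 2 and 3, against -0.13, -0.11, -0.079 and 0.00 in WT muscle 1, 2, 3 and 4. In both, mutant muscle 2 was highest and mutant muscle 1 lowest, so the WT values lay inside the mutant range. The differences were 0.17 ± 0.24 and 0.11 ± 0.18. Mars2, the methionine enzyme, had values of -0.090, 0.23 and 0.17 in mutant muscle 1, 2 and 3, against -0.010, -0.077, -0.10 and 0.013 in WT muscle 1, 2, 3 and 4. Mutant muscle 2 and 3 lay above every WT array and mutant muscle 1 above WT muscle 3 alone, and the difference was 0.15 ± 0.10. Mars2 lay in the dimmest signal class.

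The other 11 mitochondrial members had unadjusted p-values of at least 0.37 in limma. Ears2, the glutamate enzyme, which also loads glutamate onto the mitochondrial glutamine tRNA before amidation, had a difference of 0.10. Tars2, Aars2, Sars2 and Lars2 (threonine, alanine, serine and leucine) had 0.078, 0.039, 0.028 and 0.0066. Rars2, Hars2 and Wars2 (arginine, histidine and tryptophan) had -0.010, -0.042 and -0.050. Fars2, the single-chain phenylalanine enzyme, had -0.056, Iars2 (isoleucine) had -0.057 and Pars2 (proline) had -0.11.

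Pairs were formed by name, from a cytosolic gene and the gene of the same symbol ending in 2, which gave 13 amino acids. Glutamate, proline and phenylalanine were left unpaired by this rule, although enzymes of both classes were measured. Eprs (0.15) stands beside Ears2 (0.10) and Pars2 (-0.11), and Farsa (0.038) and Farsb (-0.035) beside Fars2 (-0.056). The cytosolic difference was the larger in 10 of the 13 pairs, with a median gap of 0.16. The gaps of histidine (Hars against Hars2, 0.42), isoleucine (Iars against Iars2, 0.38) and valine (Vars against Vars2, 0.38) were the widest with all 7 arrays. Their order rests on the Hars probe set used and on the arrays included. In tyrosine (Yars against Yars2, -0.20), asparagine (Nars against Nars2, -0.15) and tryptophan (Wars against Wars2, -0.035) the mitochondrial enzyme had the larger difference. All 13 pairs were read from the same 7 arrays and are not replicates of one another.

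The class medians were then taken on each array. The cytosolic median was 0.00, 0.29 and 0.00 on mutant muscle 1, 2 and 3, against 0.031, 0.00, -0.27 and 0.037 on WT muscle 1, 2, 3 and 4. The mitochondrial median was -0.066, 0.29 and 0.00 on mutant muscle 1, 2 and 3, against -0.0069, 0.00, -0.047 and 0.036 on WT muscle 1, 2, 3 and 4. Mutant muscle 2 was high in both classes, and WT muscle 3 was low in the cytosolic class. On the other 5 arrays the cytosolic median lay between 0.00 and 0.037 and the mitochondrial median between -0.066 and 0.036. Class means ran wider on these 5 arrays, between -0.0099 and 0.086 (cytosolic) and between -0.095 and 0.099 (mitochondrial). The groups overlapped in both classes. The cytosolic median averaged 0.098 ± 0.170 on mutant arrays (SD, n = 3) and -0.050 ± 0.146 on WT arrays (SD, n = 4), a gap smaller than the spread within the mutant group. The mitochondrial median averaged 0.075 ± 0.189 on mutant arrays (SD, n = 3) and -0.005 ± 0.034 on WT arrays (SD, n = 4). The cytosolic minus mitochondrial median was 0.066, 0.0048 and 0.00 on mutant muscle 1, 2 and 3. On WT muscle 1, 2, 3 and 4 it was 0.038, 0.00, -0.22 and 0.0014. This gap averaged 0.023 ± 0.037 on mutant arrays (SD, n = 3) and -0.045 ± 0.117 on WT arrays (SD, n = 4). Taken this way the groups differed by 0.068, less than the WT spread, and WT muscle 3 was far below the other arrays.

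**Figure D2:**
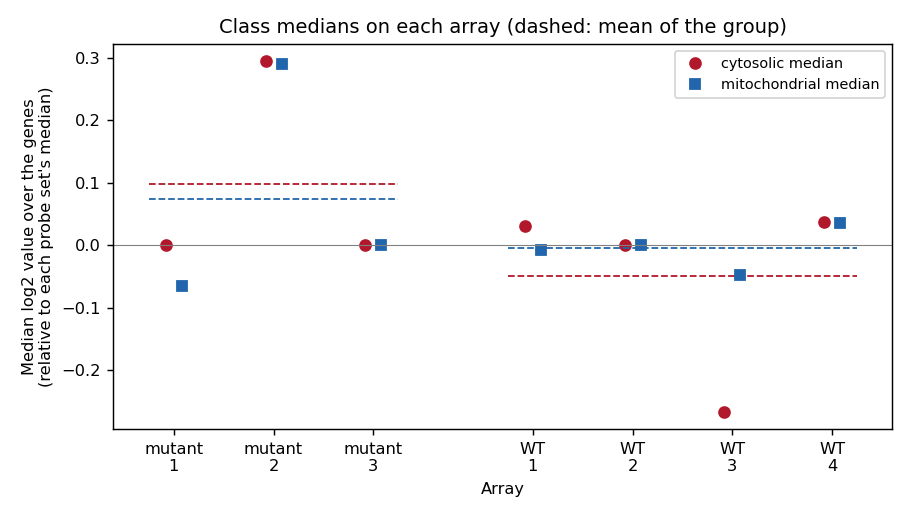
Median log2 value of the cytosolic (red circles, 19 genes) and mitochondrial (blue squares, 16 genes) synthetases on each of 3 mutant and 4 WT arrays, relative to each probe set's median, with dashed lines at the group means. Mutant muscle 2 is high in both classes at 0.29, and WT muscle 3 is low in the cytosolic class at -0.27.

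Another normalization and leaving out single arrays moved these medians. With quantile normalization the median difference was 0.10 for the cytosolic and -0.0074 for the mitochondrial class. It was run on the deposited centred values, so it evened the spread of deviations between arrays and did not normalise intensities. Without mutant muscle 2 the median difference was 0.059 for the cytosolic and -0.11 for the mitochondrial class. Without WT muscle 3 it was 0.060 and -0.018, and the gap between the classes was 0.079 instead of 0.15. Without mutant muscle 1 the gap was 0.063, with a mitochondrial median of 0.095, and without WT muscle 4 it was 0.094, with a mitochondrial median of 0.042. The mitochondrial median was 0.084 without mutant muscle 3 and 0.041 without WT muscle 1. The cytosolic median and the gap were positive in each of the 7 fits that left out an array. Each of these fits kept mutant muscle 2, WT muscle 3 or both, so they cannot show the sign without both.

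WT muscle 3 was the lowest array for 11 of 19 cytosolic and 3 of 16 mitochondrial synthetases (background 15.1% of all genes, and 23.6% of the brightest class). Control and marker probe sets also differed between arrays. The 5′ minus 3′ difference of the Gapdh control probe sets was -0.55 on WT muscle 3 and between -0.040 and 0.094 on the other 6 arrays; such a difference is known to fall where RNA is degraded. The same difference of the actin controls was 0.12 on WT muscle 3 and between -0.14 and 0.12 on the other 6. The 18S ribosomal RNA controls averaged 3.19 on mutant muscle 1 and -0.77 on mutant muscle 2, and between -0.20 and 0.56 on the other 5 arrays. The 10 muscle fibre markers other than Mb were negative on WT muscle 3, with a mean over the list of -0.61 that a few carried: Myh4 (-1.93), Ryr1 (-1.29), Ttn (-1.26) and Myh1 (-0.76), against Acta1 (-0.15), Pvalb (-0.099), Ckm (-0.022) and Mb (0.075). On the other 6 arrays the mean was between -0.057 and 0.14. On WT muscle 3 the mean over 8 fibroblast markers was 1.01, that over 6 adipocyte markers 1.08 and that over 8 leukocyte markers 0.59. The fibroblast mean was 0.85 on mutant muscle 1, carried mainly by Postn (3.82) and Fn1 (1.74). The adipocyte mean was -1.02 on WT muscle 1 and 0.64 on WT muscle 2. The arrays also differed in slow muscle fibre markers, of which 8 of 8 lay in the brightest class and had a positive mutant minus WT difference (median 1.31). Their mean was 0.30, -0.014 and -0.095 on mutant muscle 1, 2 and 3, against -3.49, -2.15, 0.76 and 0.51 on WT muscle 1, 2, 3 and 4. WT muscle 1 and 2 thus lay far below the other 5 arrays. The cytosolic median difference was 0.18 without WT muscle 1 and 0.20 without WT muscle 2. In a bulk sample, fewer cells of a type and less RNA per cell cannot be told apart. The part of these control and marker values in the synthetase values was not tested.

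Mutant muscle 2 was the highest array for 10 of 19 cytosolic and 11 of 16 mitochondrial synthetases (background 20.3%). The share was 26.2% in the brightest class and 25.6% in the 4 to 8 class. It belonged to 3 arrays that stood apart, with WT muscle 1 and 4, a split made after seeing the data from correlations over the 6345 probe sets of the brightest class. The centred values of these 3 arrays correlated at r between 0.59 and 0.62 with one another and between -0.54 and -0.24 with the other 4 arrays, which among themselves ran between -0.07 and 0.45. The probe sets share their arrays and are not independent, and no source used here says what the 3 arrays have in common.

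All 3 of these arrays lay above the other 4 for 13 of 35 synthetases (background 9.81%) and below them for 4 (background 11.1%). Among genes of the brightest class, from which the split was made, the shares were 18.4% above and 17.13% below. In the 4 to 8 class they were 10.75% and 10.3%. The 13 comprised 8 cytosolic genes (Iars, Lars, Mars, Qars, Gars, Nars, Farsb and Yars) and 5 mitochondrial genes (Tars2, Nars2, Fars2, Rars2 and Lars2). The 4 below were Hars, Rars, Kars and Vars2. Mars, for example, had values of -0.28, 0.76 and 0.00 in mutant muscle 1, 2 and 3, against 0.37, -0.097, -0.61 and 0.22 in WT muscle 1, 2, 3 and 4, and averaged 0.45 on the 3 arrays and -0.25 on the other 4. The reverse held for Hars, which averaged -0.29 on the 3 arrays and 0.22 on the other 4.

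**Figure D3:**
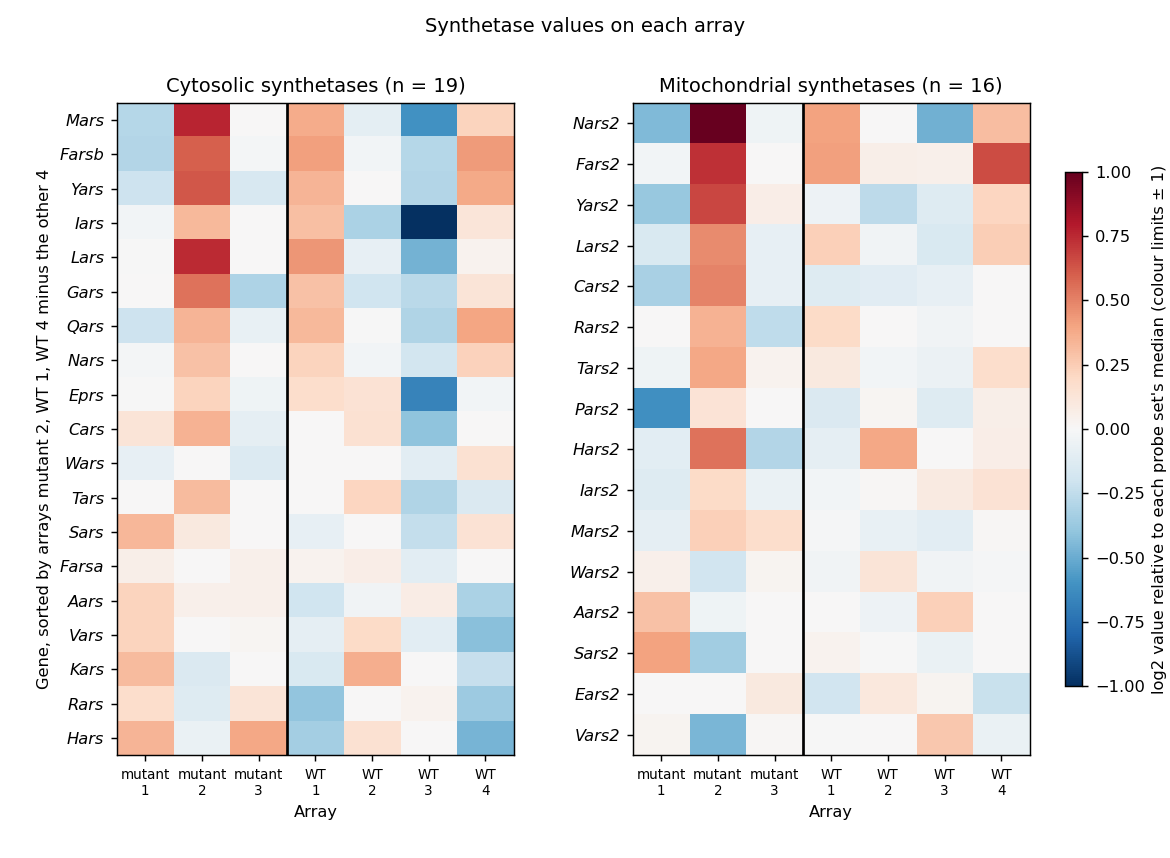
Values of each synthetase on 3 mutant (left) and 4 WT (right) arrays, as log2 relative to each probe set's median, for 19 cytosolic and 16 mitochondrial genes; colours end at -1 and 1. Genes run from those highest to those lowest on mutant muscle 2, WT muscle 1 and WT muscle 4, and WT muscle 3 is pale to blue through much of the cytosolic panel.

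Within each set of arrays the comparison was repeated. Mutant muscle 2 against WT muscle 1 and 4 gave a median difference of 0.25 for the cytosolic and 0.22 for the mitochondrial class, a gap of 0.032. Mutant muscle 1 and 3 against WT muscle 2 and 3 gave 0.098 for the cytosolic and -0.019 for the mitochondrial class, a gap of 0.12. With the 3 arrays as a block in the fit, the medians were 0.18 (cytosolic) and 0.037 (mitochondrial) and the gap 0.14. The cytosolic median was positive in both sets, of which the first holds mutant muscle 2 and the second WT muscle 3. The mitochondrial median differed in sign between them. In the blocked fit 0 genes passed the adjusted threshold in limma. An unadjusted p under 0.05 was found there for 2 of 35 synthetases (background 5.02%), Hars at 0.31 (p 0.0088) and Lars at 0.37 (p 0.037).

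**Figure D4:**
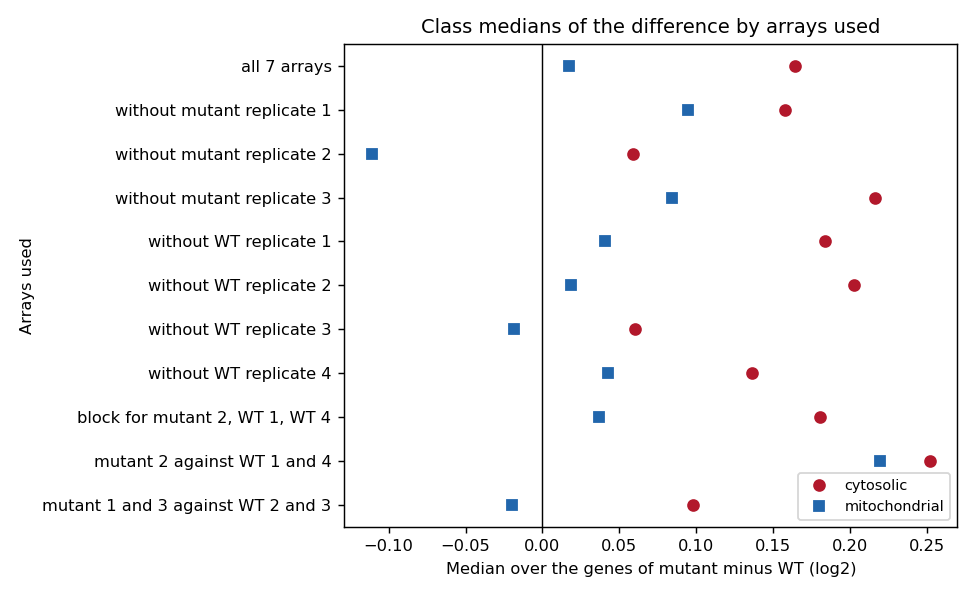
Median mutant minus WT difference on the log2 scale of the cytosolic (red circles) and mitochondrial (blue squares) synthetases with all 7 arrays, without each array in turn, with mutant muscle 2, WT muscle 1 and WT muscle 4 as a block, and within each of the 2 sets of arrays. The cytosolic median stays between 0.059 and 0.25, and the mitochondrial one lies on either side of 0, between -0.11 and 0.22.

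Probe sets of the same gene did not always give the same sign. Of the 23 members with more than 1 probe set, 12 had probe sets of opposite sign, and the median gap between a gene's lowest and highest difference was 0.24. Over all 72 probe sets, 45 differences were positive. Wars gave -0.085 in the brightest class, and up to 0.27 in the 4 to 8 class. Cars gave 0.19 in the brightest class and -0.16 in the dimmest. Probe sets with the suffix _x_at, which the array's maker marks as able to cross-hybridise, lay above the other 4 arrays on all 3 arrays that stood apart in 6 of 8 cases, against 15 of the other 64. The same shares over all probe sets of the array were not taken, so these counts cannot be read as a trait of the synthetases.

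**Figure D5:**
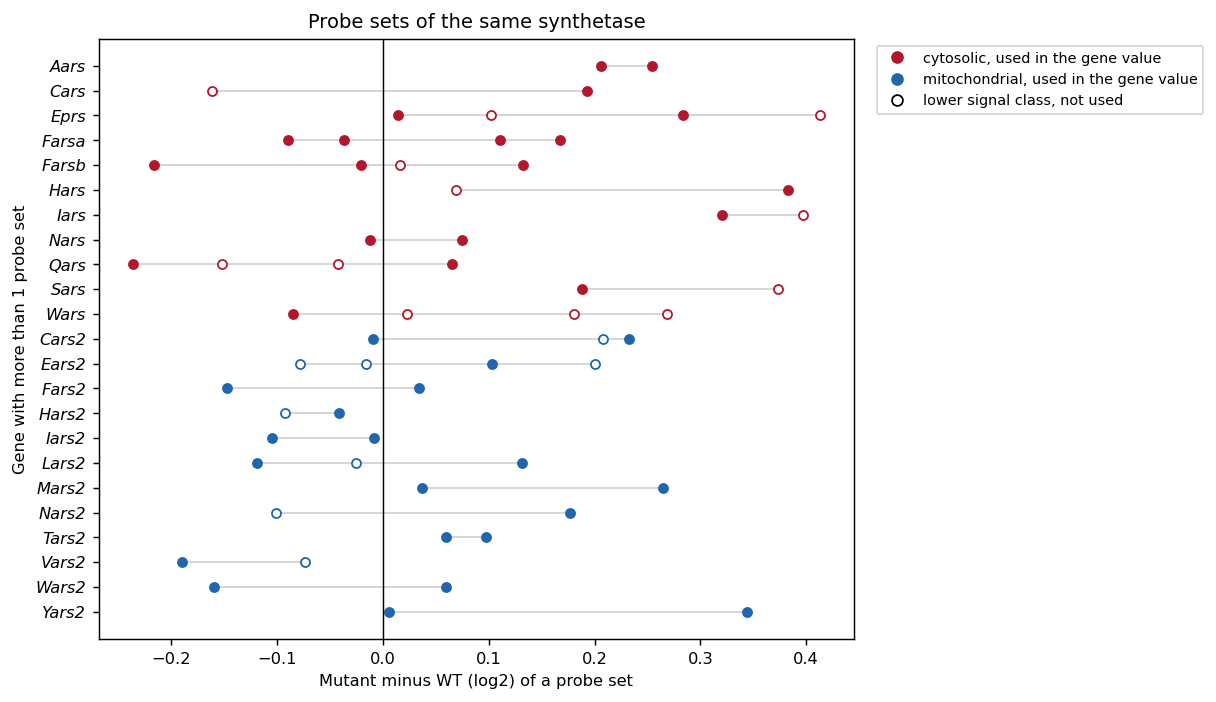
Mutant minus WT difference on the log2 scale of every probe set of the 23 synthetases with more than 1, cytosolic in red and mitochondrial in blue. Filled points entered the gene's value, open points lay in a dimmer signal class, and for 12 genes the points fall on both sides of 0.

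Genes that work beside the synthetases were taken from 8 lists chosen with earlier results of these data known. Of 45 listed genes 43 were measured. In limma 0 passed the adjusted threshold (background 0.0%) and 0 had an unadjusted p under 0.05 (background 1.39%). Differences were positive for 30 and negative for 13 (background 46.4% positive, and 55.8% in the brightest class). The median was 0.068, beside -0.011 over all genes. In the list of uncharged tRNA sensing and ATF4, 7 of 8 were positive. Asns, which makes asparagine and is a target of ATF4, had values of 1.47, 0.65 and -0.072 in mutant muscle 1, 2 and 3, against -0.49, -0.19, 0.57 and -0.50 in WT muscle 1, 2, 3 and 4. Its difference was 0.84 ± 0.40 (1.78-fold, unadjusted p 0.072, adjusted p 1.00 in limma), and the groups overlapped because mutant muscle 3 lay below WT muscle 3. Trib3, a pseudokinase and another ATF4 target, had a difference of 0.50 ± 0.24, with 1.07 on mutant muscle 1. Atf4 itself had 0.074 ± 0.12, and Eif2ak4, the GCN2 kinase, 0.13 ± 0.12.

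Of the 5 editing and proofreading factors 3 were positive (background 46.4%, here and for the lists below), led by Ankrd16, a cofactor of alanine-tRNA editing, at 0.31 ± 0.15. Trit1, a tRNA isopentenyltransferase, had -0.27 ± 0.14, in a list of 13 mitochondrial tRNA processing and modification genes with 7 positive. All 4 genes of the mitochondrial amidotransferase and formyltransferase list were positive, and Gatc, an amidotransferase subunit, had 0.26 ± 0.20. The 3 scaffold genes of the multi-synthetase complex had 1 positive difference, that of Aimp1 at 0.16 ± 0.22. Elongation factors, which carry charged tRNA to the ribosome or move it along, were positive for 4 of 5 cytosolic genes (Eef1a2, 0.10 ± 0.13) and 3 of 4 mitochondrial genes (Gfm1, 0.10 ± 0.11). Tars3, a second cytosolic threonine enzyme, had 0.10 ± 0.22. The brightest class, with 55.8% of all its genes positive, held the 3 scaffold genes, 5 of 5 cytosolic and 3 of 4 mitochondrial elongation factors. It also held 1 of 5 editing factors, 1 of 4 amidotransferase and formyltransferase genes and 4 of 13 tRNA processing and modification genes. In the 4 to 8 class 47.9% of all genes were positive.

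Fgf21, the secreted hormone that the study's title names, is given for scale. Its values were 2.03, 0.93 and 0.83 in mutant muscle 1, 2 and 3, against -0.43, -0.40, 0.00 and -0.053 in WT muscle 1, 2, 3 and 4. All mutant arrays lay above all WT arrays, and the difference was 1.48 ± 0.29 (2.79-fold, unadjusted p 0.0013), with an adjusted p of 1.00 in limma. Twnk, the mouse gene of Twinkle, had a difference of 0.040 ± 0.18; no source used here says whether its probe set detects the transgene, so this is no check of the labels.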

How the data were processed

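RNA of 3 mutant and 4 WT muscles was hybridised to single-colour Affymetrix arrays. GCOS 4.0 is the tool listed in the submitters' processing notes. How the authors summarised, scaled and centred the values, and the log base, are not given in the sources used here. The deposited values were read as log2 from the values themselves: each of 45101 probe sets has a median of exactly 0, and single-precision spacing fits numbers between 2 and 16. Of 34958 probe sets with 1 symbol, 34754 were updated through RefSeq (GRCm38.p6) and 204 kept the platform annotation's symbol. The two-sided tests were run per gene in R 4.3.3 by lmFit and eBayes of limma 3.58.1 without covariates, and the code was checked on simulated data. Summaries used Python 3.11.15, pandas 2.3.3 and numpy 2.4.6. Arrays give no read depth, so their number limits precision.

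The members and lists were chosen with earlier results of these data known. After member values were seen, the spacing rule was extended to small values, which moved Hars from 0.23 (both probe sets averaged) to 0.38. Array values are given for members with an unadjusted p under 0.10, with groups that do not overlap, or among the 5 largest differences of their class; of each pathway list the members with the smallest p are named, and Mars, Atf4 and Eif2ak4 were named after their values were seen. Alternatives covered normalization, probe sets, dim genes, the prior, age, blocks and left-out arrays.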

Additional observations from a re-analysis of the deposited data

Results flagged for a closer look

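The median of the 19 cytosolic synthetases on WT muscle 3, at -0.27, lay far from the other 3 WT arrays (0.031, 0.00 and 0.037). Its gap to the nearest of them, divided by the range of the WT group, was 0.88, above Dixon's critical value for 4 samples. It was the 1 value found so among 37 sets of WT values tested, where chance marks about 1 in 20; the mutant group of 3 was not tested. The mean of the 19 genes was 0.086, 0.026, -0.28 and 0.015 on WT muscle 1, 2, 3 and 4. The median of the 15 cytosolic genes in the brightest class was 0.18, -0.0040, -0.27 and 0.12 there. In both, the other 3 WT arrays lay further apart than in the class median. The ratio was not taken for them, so the flag holds for the class median alone. The control and marker values of WT muscle 3 stand beside the result above, and their part in the flagged value was not tested.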

How the results depend on the processing

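No gene passed the adjusted threshold of limma in any of 17 alternatives, of which 4 were added after seeing the data, so no call was gained or lost; the count at an unadjusted p under 0.05 ran between 96 and 3496. The higher count came from mutant muscle 2 against WT muscle 1 and 4, where 1 residual degree of freedom is left and the lone mutant array is assumed to vary like the others. The cytosolic median kept its sign in all 17, each of which kept mutant muscle 2, WT muscle 3 or both. The mitochondrial median was 0.22 and the gap between the classes 0.032 within the 3 arrays that stood apart, and leaving out single arrays put the mitochondrial median between -0.11 and 0.095. With quantile normalization the cytosolic median was 0.10, the mitochondrial median turned negative at -0.0074 and the gap was 0.11; the mitochondrial median was also negative without the 3 arrays that stood apart (-0.019). The dimmest-class filter, the robust prior and the other alternatives left the cytosolic median between 0.059 and 0.25. The cause of these shifts was not tested.

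Of the 35 members, 11 kept their sign in each of the 17 alternatives that included them. They were Aars, Cars, Hars, Iars, Lars, Rars, Sars, Tars, Vars, Vars2 and Mars2. The alternative without the dimmest class left out Mars2. The other 24 members changed sign in at least 1 alternative, in 78 values in all, and none of these was past the threshold. Leaving out single arrays put Eprs between -0.042 and 0.24, Tars2 between -0.051 and 0.16, Wars2 between -0.094 and 0.027, Yars2 between -0.10 and 0.42, Aars2 between -0.066 and 0.10, Cars2 between -0.12 and 0.29 and Gars between -0.14 and 0.28. It put Iars2 between -0.15 and 0.0063, Mars between -0.11 and 0.41, Pars2 between -0.26 and 0.12, Nars between -0.069 and 0.088, Nars2 between -0.30 and 0.52, Sars2 between -0.16 and 0.21 and Hars2 between -0.29 and 0.13. It put Kars between -0.066 and 0.19, Qars between -0.24 and 0.028, Lars2 between -0.19 and 0.12, Rars2 between -0.17 and 0.13, Fars2 between -0.30 and 0.073, Yars between -0.29 and 0.12 and Farsb between -0.29 and 0.16. With quantile normalization, these differences were Gars -0.062, Nars -0.015 and Lars2 -0.086. With all probe sets averaged, these differences were Wars 0.097 and Lars2 -0.0039. With age as a covariate, these differences were Farsb 0.014, Yars 0.033 and Rars2 0.027. With the 3 arrays that stood apart as a block, these differences were Farsb 0.072, Yars 0.082, Fars2 0.041, Rars2 0.033 and Sars2 -0.0031. Without probe sets ending in _s_at or _x_at, these differences were Farsb 0.13, Qars 0.066 and Fars2 0.034. Without the 3 arrays that stood apart, these differences were Farsb 0.00083, Kars -0.021, Qars 0.012, Cars2 -0.11, Ears2 -0.017, Lars2 -0.022 and Nars2 -0.0042. Within the 3 arrays alone, these differences were Farsa -0.017, Farsb 0.18, Yars 0.26, Aars2 -0.039, Fars2 0.20, Hars2 0.56, Iars2 0.13, Pars2 0.18, Rars2 0.25 and Sars2 -0.36. The cause was not tested.

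The labels do not say whether the replicate numbers pair the samples. Same-numbered mutant and WT arrays correlated at -0.57, -0.47 and 0.18 in their deviations from the group means. In each pair with a negative value, either the mutant or the WT array, but not both, was among the arrays that stood apart. Those arrays correlated negatively with all the others, so these values cannot decide whether the samples were paired. With the replicate number as a block, in which WT muscle 4 has no partner, the cytosolic median was 0.14, the mitochondrial 0.042 and the gap 0.094. Members of changed sign under this block were Farsb 0.063, Kars -0.011, Qars 0.012, Yars 0.069 and Fars2 0.064.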
